A study of Rattus norvegicus with 105 samples.

Results

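The amino acid transporter genes of the assay were the probes whose gene symbol begins with Slc1a, Slc3a, Slc6a, Slc7a, Slc36a, Slc38a or Slc43a. The rule picked 66 probes of 59 genes from the 22253 probes of the table. Of these, 36 probes (32 genes) reached 1 CPM in at least 3 libraries, where CPM, the unit of levels, is the probe's count scaled to a common library total. No probe picked by the rule carried the symbol Slc3a2 or Slc38a2, so these symbols were not analysed here. The member Slc7a6os is the gene on the opposite strand of Slc7a6 and is not known as a carrier. Counts of members below are counts of probes, so a gene with several probes, such as Slc7a1, can count more than once.

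Amino acid carriers sit in the plasma membrane or the lysosomal membrane and move amino acids with sodium, with protons, or in exchange for another amino acid. Hepatocytes take up much of the amino acids that reach the liver and use them for urea, glucose, plasma protein and glutathione. When amino acids run short, the factor ATF4 raises several carrier genes, among them Slc7a1, Slc7a5, Slc7a11 and Slc1a4. NRF2, the regulator of the oxidant response, raises Slc7a11, which brings in cystine for glutathione.

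Primary hepatocytes of female Sprague-Dawley rats, from 1 commercial lot, were exposed for 24 hours and read with TempO-Seq, in which paired detector oligonucleotides are ligated on the RNA and sequenced. Nitromethane is written NM, nitroethane NE and 1-nitropropane 1NP; from the first to the last of them the chain grows by 1 carbon at a time. The 8 concentrations of each ran from 0.003 to 10 mM. Set 1 held NM, NE, plain medium, DMSO, benzo[a]pyrene (BaP, an aryl hydrocarbon receptor ligand) at 50 µM, and WY-14643 (a PPARα agonist) at 50 µM. It also held CITCO (an activator of the human receptor CAR) at 10 and 20 µM and rifampin (an activator of human PXR) at 20 and 40 µM. Whether CITCO and rifampin activated CAR and PXR in these rat cells was not examined here. Set 2 had the 1NP wells with their own medium, DMSO and WY-14643 wells. All 35 groups had n = 3 libraries, 105 in all, and the groups of a nitroalkane were tested against the DMSO and the medium of their own set. Whether the wells with nitroalkanes also contained DMSO is not stated, so counts of called members are given against both controls. WY-14643 in set 2 carries 50 µM in its title and 100 in the names of its libraries. Plate rows followed the concentrations (0.003 mM in row A to 10 mM in row H, medium in row A, DMSO in row B), so concentration and row cannot be told apart. Each nitroalkane had its own block of plate columns, apart from the controls of its set, so compound and column block cannot be told apart either. CITCO at 20 µM and rifampin at 40 µM lay in another column block than their lower concentrations and the controls. Because the replicates are wells of 1 cell lot, p-values reflect well-to-well spread, not the spread between animals.

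Library totals ran from 5475419 to 11122665 counts, so that 3 counts, the floor used here, were worth 0.27 to 0.548 CPM (counting error only). The following 6 libraries stood apart: NE 10 mM replicate 2, NE 0.01 mM replicate 3, NM 10 mM replicate 3, NM 3 mM replicate 1, NM 1 mM replicate 1 and 1NP 10 mM replicate 3. No cut-off set this list, and the fits without these libraries were added after seeing the data. NE 10 mM replicate 2 had counts in 21627 probes, against a median of 13792. NM 1 mM replicate 1 had counts in 16558 probes. NE 1 mM replicate 3 (16178) and 1NP 0.003 mM replicate 3 (16457) lay near it and are not on the list. Of 10 hepatocyte markers, 9 were on the panel and all 9 were above 1 CPM, with a summed level of 6485 to 15840 CPM. Endothelial, lymphocyte and erythroid markers each had a median of 0 CPM per gene. The cholangiocyte list was not at 0: Sox9 had a median of 437 CPM, Epcam 185 CPM and Krt19 30.6 CPM, and in the stellate cell list Reln had 344 CPM. The 8 Kupffer cell markers summed to 0.856 to 22.6 CPM. In these bulk libraries fewer cells of a type and less RNA per cell cannot be told apart.

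The 30 probes that did not reach the level had almost no counts. For 22 of them exactly 1 library lay at 1 CPM, and in all 22 cases it was NE 10 mM replicate 2. A further 7 had no library at 1 CPM, among them the glutamine carrier Slc38a1, whose highest level was 0.946 CPM. Slc38a5 had 2 libraries at the level and lay just outside, while Slc7a7 with 12 libraries was the nearest inside. By class, 8 of 9 probes of the cationic carriers, 5 of 8 of the glutamate carriers and neutral exchangers, 6 of 11 of the heteromeric carriers and their heavy chain, 5 of 7 of the proton-coupled and facilitated carriers, 6 of 11 of the Slc38 family and 5 of 19 of the sodium and chloride coupled Slc6 family reached it. The Slc6 members below the level include the neuronal carriers Slc6a2, Slc6a3 and Slc6a4, which take up noradrenaline, dopamine and serotonin.

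Among the members that reached the level, Slc38a4, a sodium-coupled neutral amino acid carrier characteristic of liver, ran from 157 to 1252 CPM over the 105 libraries (median 683). Slc38a3, the hepatocyte glutamine carrier, ran from 59.1 to 254 CPM (median 93.9). Slc7a2, the cationic amino acid carrier typical of liver, ran from 16.1 to 156 CPM (median 41.5). Slc38a9, the lysosomal arginine sensor of the mTORC1 pathway, was narrower, at 64.7 to 164 CPM (median 85.5). Slc7a11 ran from 2.31 to 25.4 CPM (median 7.96). Levels of different probes are not compared, since each detector has its own efficiency.

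The promoters of the members above the level were searched for the C/EBP-ATF response element core, TGATGNAA, and for the antioxidant response element core, TGACNNNGC, on both strands. RefSeq windows of 300 bases (250 before and 50 after the start, build GRCr8) were found for 23 of the 32 genes. The C/EBP-ATF core stood in 2 of these genes, Slc7a1 and Slc1a4, and in 3.98% of all 33469 windows. The antioxidant core stood in 5 genes (Slc7a1, Slc36a1, Slc3a1, Slc6a6 and Slc7a7) and in 12.1% of all windows, and not in the window of Slc7a11. The windows of Slc7a1 (chr12:11664238-11664537, plus strand) and Slc1a4 (chr14:98761513-98761812, minus strand) are shown because they hold the amino acid response core, which is in capitals, in Slc1a4 as its reverse complement. A match describes letters and is not a site of binding.
Slc7a1: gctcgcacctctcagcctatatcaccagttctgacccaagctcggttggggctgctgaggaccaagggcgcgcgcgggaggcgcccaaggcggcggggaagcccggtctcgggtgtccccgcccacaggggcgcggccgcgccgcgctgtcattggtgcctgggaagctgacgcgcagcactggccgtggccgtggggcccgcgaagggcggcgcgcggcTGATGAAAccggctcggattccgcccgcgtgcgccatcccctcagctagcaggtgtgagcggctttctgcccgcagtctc
Slc1a4: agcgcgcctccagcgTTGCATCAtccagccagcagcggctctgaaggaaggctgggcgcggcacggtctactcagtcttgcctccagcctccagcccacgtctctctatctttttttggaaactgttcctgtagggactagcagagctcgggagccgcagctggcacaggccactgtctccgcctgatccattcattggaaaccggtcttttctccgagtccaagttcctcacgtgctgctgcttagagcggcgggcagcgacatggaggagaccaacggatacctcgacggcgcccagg

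The controls already differed in these genes. Slc7a2 read 35.1, 35.5 and 23.7 CPM in the medium wells of set 1 and 86.7, 78.0 and 68.9 CPM in the DMSO wells. In set 2 it read 30.3, 27.8 and 23.1 CPM in medium and 76.6, 61.2 and 66.2 CPM in DMSO. Every medium well lay below every DMSO well of its set, with a log2 difference, medium minus DMSO, of -1.35 ± 0.15 (SE, adjusted p = 6.51e-07) in set 1 and -1.43 ± 0.14 (adjusted p = 1.31e-06) in set 2. Slc38a3 was likewise lower in medium, by -0.99 ± 0.11 and -0.90 ± 0.14, and so was Slc6a13, a carrier of GABA and taurine in liver, by -1.31 ± 0.27 and -1.19 ± 0.29. Other members went the opposite way in both sets: Slc7a5, which carries large neutral amino acids such as leucine, was higher in medium by 1.18 ± 0.27 and 0.98 ± 0.28, and the Slc7a1 probes Slc7a1_9883 and Slc7a1_81775 by 0.80 to 1.19.

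Counted over the members, 7 of 33 tested differed between medium and DMSO in set 1 (4 higher in medium, 3 lower), where 7.06% of all probes did. In set 2 the count was 12 of 32 (8 higher, 4 lower), where 24% of all probes did. The additional members in set 2 were Slc1a5, Slc1a2, Slc43a1, Slc38a7 and Slc7a1_81776, which were higher in medium, and Slc6a12, which was lower. In set 1, Slc6a8, the creatine carrier, was higher in medium by 0.87 ± 0.26. Without DMSO replicate 1, DMSO replicate 2, medium replicate 2 or medium replicate 3 of set 1 the call of Slc6a8 was lost (adjusted p 0.0664 to 0.179), and the set 1 calls of Slc7a5, Slc7a1_9883 and Slc7a1_81775 were each lost without at least 2 of the libraries, 1 at a time. In set 2 the call of Slc6a13 was lost without DMSO replicate 4 (0.0524), that of Slc43a1 without DMSO replicate 6 (0.0765) and that of Slc7a5 without DMSO replicate 6 or medium replicate 5 (0.0793 and 0.0588). Those of Slc1a2, Slc38a7 and Slc6a12 were each lost without at least 3 libraries, 1 at a time. The summed level of the hepatocyte markers was 14600 to 15840 CPM in DMSO and 8636 to 10810 CPM in medium of set 1, and its part in these differences was not tested.

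**Figure D1:**
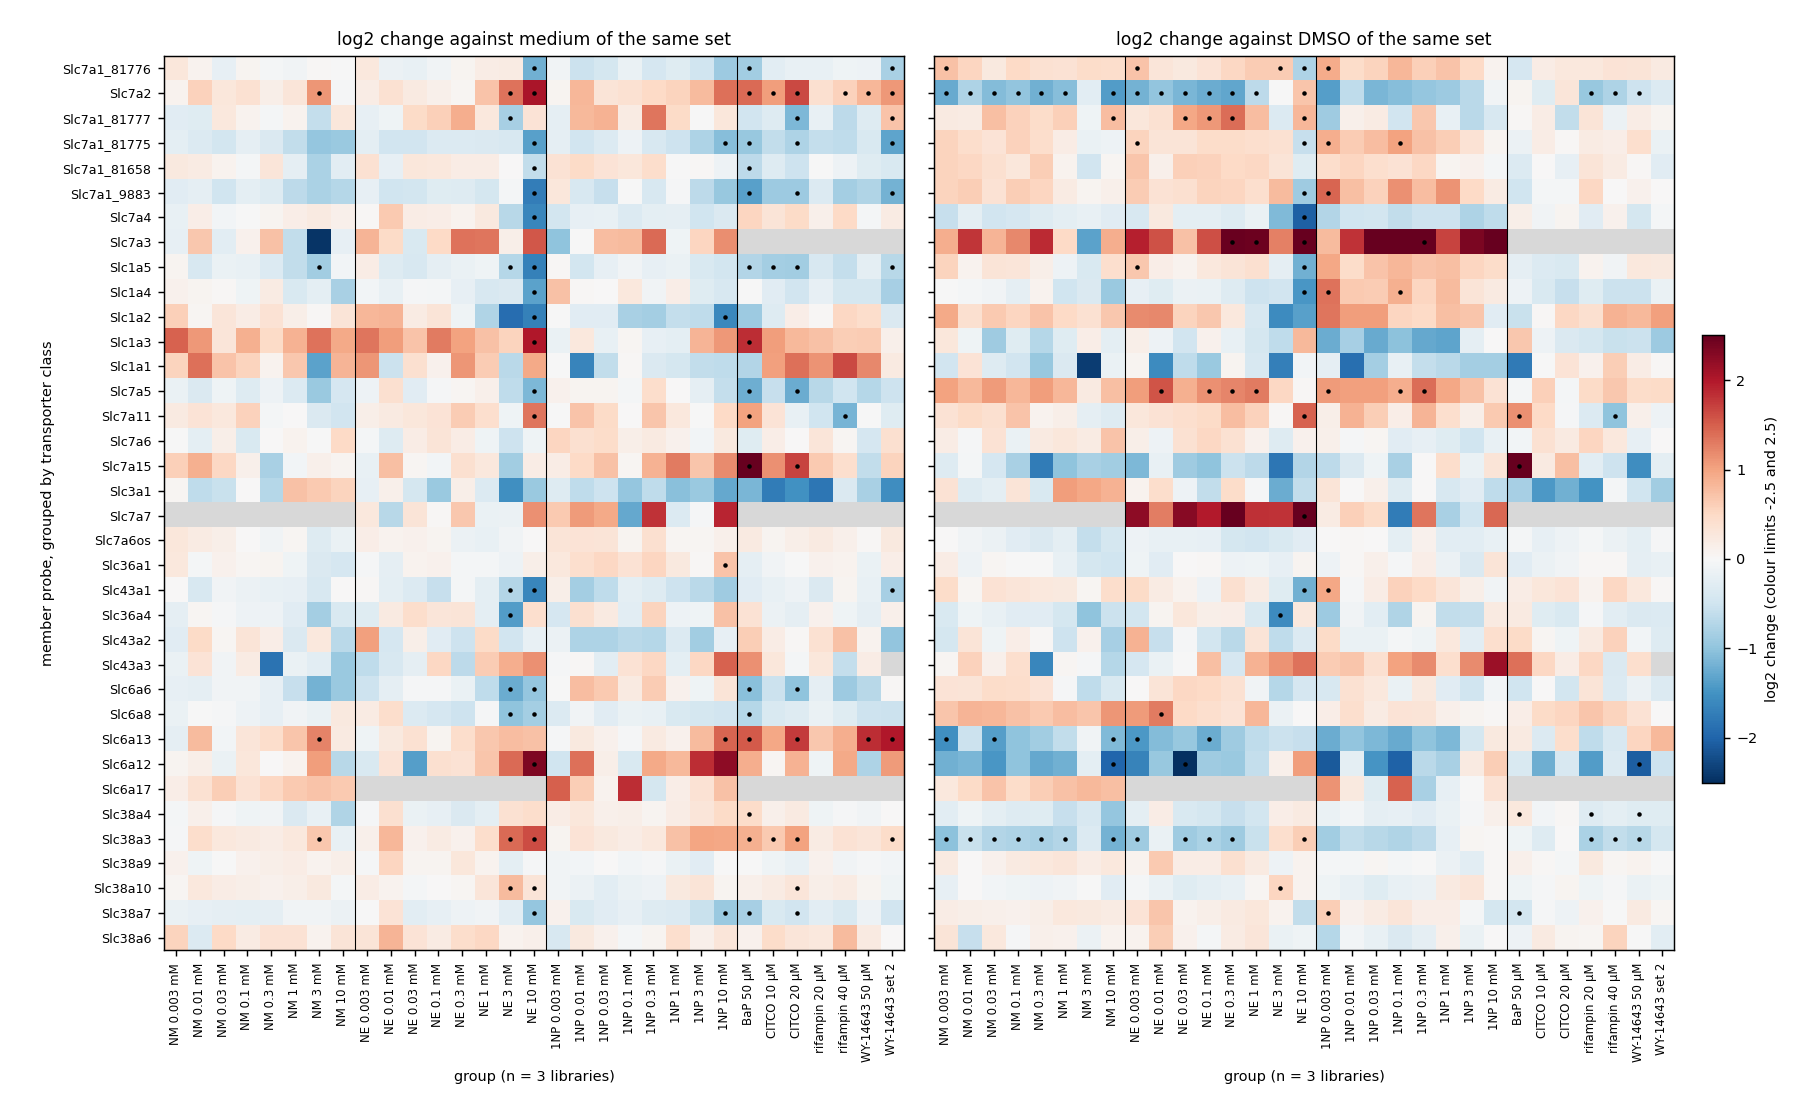
Log2 changes (colour, limits -2.5 to 2.5) of the 36 member probes above the level (rows, by class) in each group of 3 libraries (columns), against medium on the left and DMSO on the right; dots mark an adjusted p under 0.05 and grey marks a probe that the fit left out. Dots gather at NE 10 mM, BaP and CITCO 20 µM on the left, and on the right the rows of Slc7a2 and Slc38a3 are blue at most low concentrations.

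NE at 10 mM changed the largest number of members among the nitroalkane groups. Against medium, 19 of the 35 members tested were called, 6 higher and 13 lower, where 34% of all probes were called. The lower ones include Slc7a1_9883, Slc7a1_81658, Slc7a1_81775 and Slc7a1_81776, which are probes of 1 gene. Against DMSO 13 of 35 were called, 6 higher and 7 lower, where 28.9% of all probes were called. The median log2 change of the members was 0.00 against medium and -0.07 against DMSO, beside 0.03 and 0.03 over all probes. The 35 tested are those that passed the low-count filter of these fits. Called with the same sign against both controls were Slc7a2, Slc38a3 and Slc7a11, which were higher, and Slc1a5, Slc1a4, Slc43a1, Slc7a4 and the probes Slc7a1_81775, Slc7a1_81776 and Slc7a1_9883, which were lower. Slc43a1, Slc1a4 and Slc7a1 belong to a list of carriers described whatever they did, while Slc7a4, with a mean under 10 CPM, was named after its values were seen.

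Of the cationic amino acid carriers, which move arginine, lysine and ornithine, Slc7a2 rose at 10 mM NE, while 3 of the 5 probes of Slc7a1 fell against both controls. Slc7a2 read 121, 141 and 131 CPM at 10 mM NE, above every control well, and rose by 2.05 ± 0.18 against medium (adjusted p = 1.11e-09) and by 0.68 ± 0.16 against DMSO (adjusted p = 0.0016). Slc7a1_81776, a probe of the widely expressed carrier Slc7a1, read 36.3, 38.8 and 38.0 CPM at 10 mM NE. The same probe read 81.7, 87.7 and 90.5 CPM in medium and 49.0, 57.9 and 78.0 CPM in DMSO. All NE wells lay below all control wells, and the change was -1.20 ± 0.18 against medium and -0.77 ± 0.19 against DMSO (adjusted p = 6.06e-06 and 0.00355). Slc7a1_81775 read 11.4, 15.8 and 16.4 CPM at 10 mM NE, 32.1, 42.2 and 37.0 CPM in medium and 21.0, 20.4 and 20.6 CPM in DMSO, again with no overlap. Slc7a4, an orphan relative of the cationic carriers, read 2.35, 2.26 and 0.555 CPM, against 4.67 to 5.64 CPM in medium and 5.91 to 7.70 CPM in DMSO, a change of -1.63 ± 0.38 and -2.04 ± 0.38. Slc7a3, with a median of 0.734 CPM over all libraries, was called higher against DMSO by 2.65 (adjusted p = 0.00319) and was not called against medium. Its call was kept in all 12 alternatives, and it was named after its values were seen.

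The 5 probes of Slc7a1 did not read alike. At 10 mM NE against DMSO, Slc7a1_9883, Slc7a1_81775 and Slc7a1_81776 fell by 0.57 to 0.88, Slc7a1_81658 changed by -0.31 ± 0.21 and was not called, and Slc7a1_81777 rose by 0.84 ± 0.25 (adjusted p = 0.0137). Slc7a1_81777 read 57.6, 58.7 and 41.5 CPM at 10 mM, 35.0, 20.9 and 10.2 CPM at 3 mM, and 29.7, 31.9 and 22.6 CPM in DMSO. Its values at 10 mM lay above DMSO, and those at 3 mM spread around it. Against medium, Slc7a1_81777 was called lower at 3 mM (-0.825, adjusted p = 0.0294). Its call against DMSO at 10 mM was lost without NE 10 mM replicate 1 (adjusted p = 0.0725) or DMSO replicate 3 (0.0899). That of Slc7a1_9883 was lost without NE 10 mM replicate 2 (0.111), DMSO replicate 2 (0.0529) or DMSO replicate 3 (0.0932). Which transcripts each probe detects is not given in the sources used here.

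**Figure D2:**
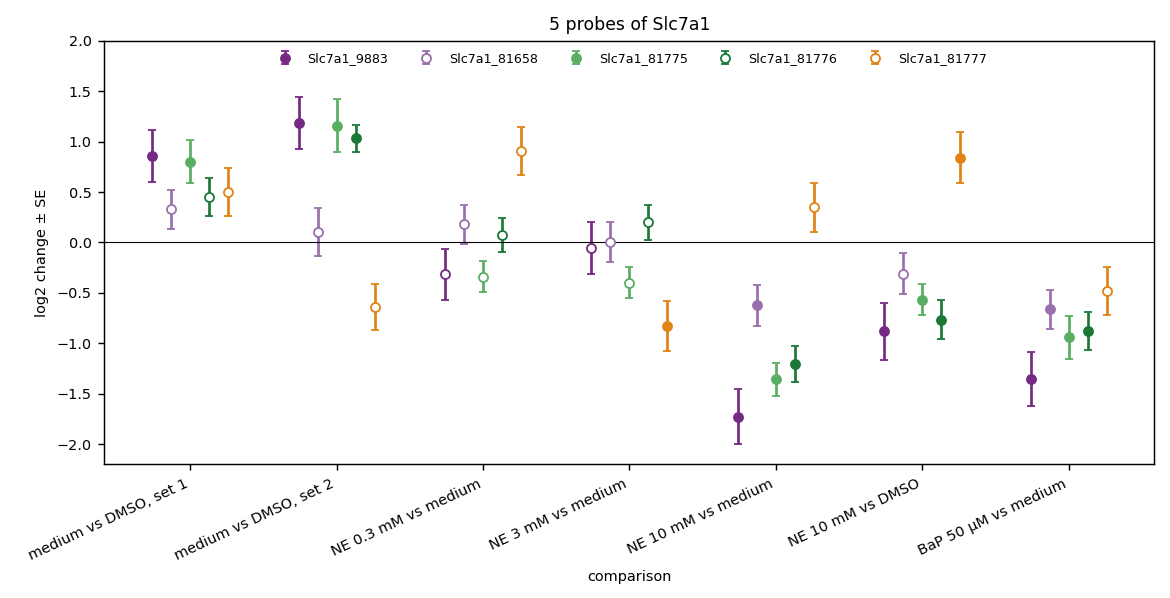
Log2 change (y axis, ± SE) of the 5 Slc7a1 probes (colours) in 7 comparisons (x axis, 3 libraries a group); filled symbols passed an adjusted p under 0.05. At NE 10 mM against DMSO Slc7a1_81777 lies above 0, at 0.84, and the other 4 probes lie below 0.

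Among the glutamate carriers and neutral exchangers, Slc1a5 and Slc1a4 fell. Slc1a5, which exchanges glutamine and other neutral amino acids, read 12, 10.1 and 15.7 CPM at 10 mM NE, 40.5, 39.6 and 43.6 CPM in medium and 26.9, 24.3 and 33.8 CPM in DMSO. No NE well reached a control well, and the change was -1.69 ± 0.17 against medium (adjusted p = 1.43e-08) and -1.21 ± 0.18 against DMSO (adjusted p = 8.71e-06). Slc1a4, the alanine, serine and cysteine exchanger whose promoter is printed above, read 2.48, 2.00 and 5.22 CPM, against 7.74 to 9.14 CPM in medium and 7.95 to 9.70 CPM in DMSO. Its change was -1.33 ± 0.32 and -1.45 ± 0.32. The glutamate carrier Slc1a2 was called against medium (-1.70 ± 0.64, adjusted p = 0.0424) and not against DMSO. That call was lost without either of 2 medium or either of 2 NE libraries, up to an adjusted p of 0.164. The glutamate carrier Slc1a3, near the floor in medium, rose against medium by 2.00 ± 0.54 and was not called against DMSO.

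Of the heteromeric carriers, which pair a light chain with a heavy chain, Slc7a11 rose and Slc7a5 differed between controls. Slc7a11 read 17.8, 16.5 and 25.4 CPM at 10 mM NE, 8.70, 6.26 and 8.77 CPM in medium and 7.34, 6.34 and 7.14 CPM in DMSO. Every NE well lay above every control well, with changes of 1.34 ± 0.26 and 1.48 ± 0.25 (adjusted p = 0.000182 and 7.2e-05). Slc7a5 read 6.44, 4.26 and 6.88 CPM, below the medium wells (10.8 to 16.6 CPM) and within the DMSO wells (4.03 to 7.58 CPM). It was called against medium (-1.13 ± 0.31) and not against DMSO (0.04 ± 0.33). Slc7a6, a carrier of cationic and large neutral amino acids, changed by -0.10 ± 0.30 and 0.10 ± 0.30 and was not called. Its relative Slc7a7, which had 0 counts in 2 of 3 DMSO libraries, was called against DMSO, and the call was lost without NE 10 mM replicate 2 (adjusted p = 0.139), DMSO replicate 2 (0.116) or DMSO replicate 3 (0.129).

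The facilitated carrier of branched-chain amino acids, Slc43a1, read 3.22, 4.39 and 3.44 CPM at 10 mM NE, below the 9.28 to 13.9 CPM of medium and the 6.34 to 9.03 CPM of DMSO. It fell by 1.64 ± 0.23 and by 1.19 ± 0.23. The other members of its class, Slc43a2, Slc43a3, Slc36a1 and Slc36a4, were not called at 10 mM against either control. In the Slc6 family, the taurine carrier Slc6a6 and the creatine carrier Slc6a8 were called lower against medium (-0.96 ± 0.29 and -0.85 ± 0.32), and Slc6a12, the betaine and GABA carrier, was called higher (2.34 ± 0.56), and none of them against DMSO. The call of Slc6a6 was lost without NE 10 mM replicate 2 (adjusted p = 0.0673), and that of Slc6a8 without either of 2 medium or either of 2 NE libraries (up to 0.148).

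In the Slc38 family, Slc38a3 read 254, 233 and 229 CPM at 10 mM NE, against 69.1, 93.6 and 69.9 CPM in medium and 153, 148 and 147 CPM in DMSO. All NE wells were higher than all control wells. The rise was 1.62 ± 0.21 against medium (adjusted p = 9.7e-07) and 0.62 ± 0.20 against DMSO (adjusted p = 0.018), and the call against DMSO was lost without NE 10 mM replicate 1 (0.092), DMSO replicate 2 (0.057) or DMSO replicate 3 (0.0667). Slc38a4 read 969, 850 and 1198 CPM at 10 mM NE, 779, 787 and 682 CPM in medium and 825, 881 and 814 CPM in DMSO. Its wells overlapped those of DMSO, and its changes of 0.44 ± 0.22 and 0.22 ± 0.21 were not called. Slc38a7, a lysosomal glutamine exporter, was called lower against medium only (-0.98 ± 0.25). Slc38a9 changed by -0.02 ± 0.21 and 0.09 ± 0.21 and was not called.

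The marker sums also moved with this group. The cholangiocyte list summed to 224 to 287 CPM at 10 mM NE, against 627 to 737 CPM in medium and 545 to 624 CPM in DMSO, and the hepatocyte list to 6485 to 8733 CPM, against 8636 to 10810 and 14600 to 15840 CPM. Of the 9 hepatocyte markers 3 were called higher and 1 lower against medium (median log2 change 0.38), opposite to their sum, and 1 higher and 5 lower against DMSO (median -0.67). Their part in the transporter changes was not tested. Without the libraries that stood apart, 17 members were called against medium (7 higher, 10 lower; 35.8% of all probes) and 13 against DMSO (6 higher, 7 lower; 30.6%). In that fit Slc38a4 was called higher against both controls, by 0.62 ± 0.13 and 0.40 ± 0.13.

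**Figure D3:**
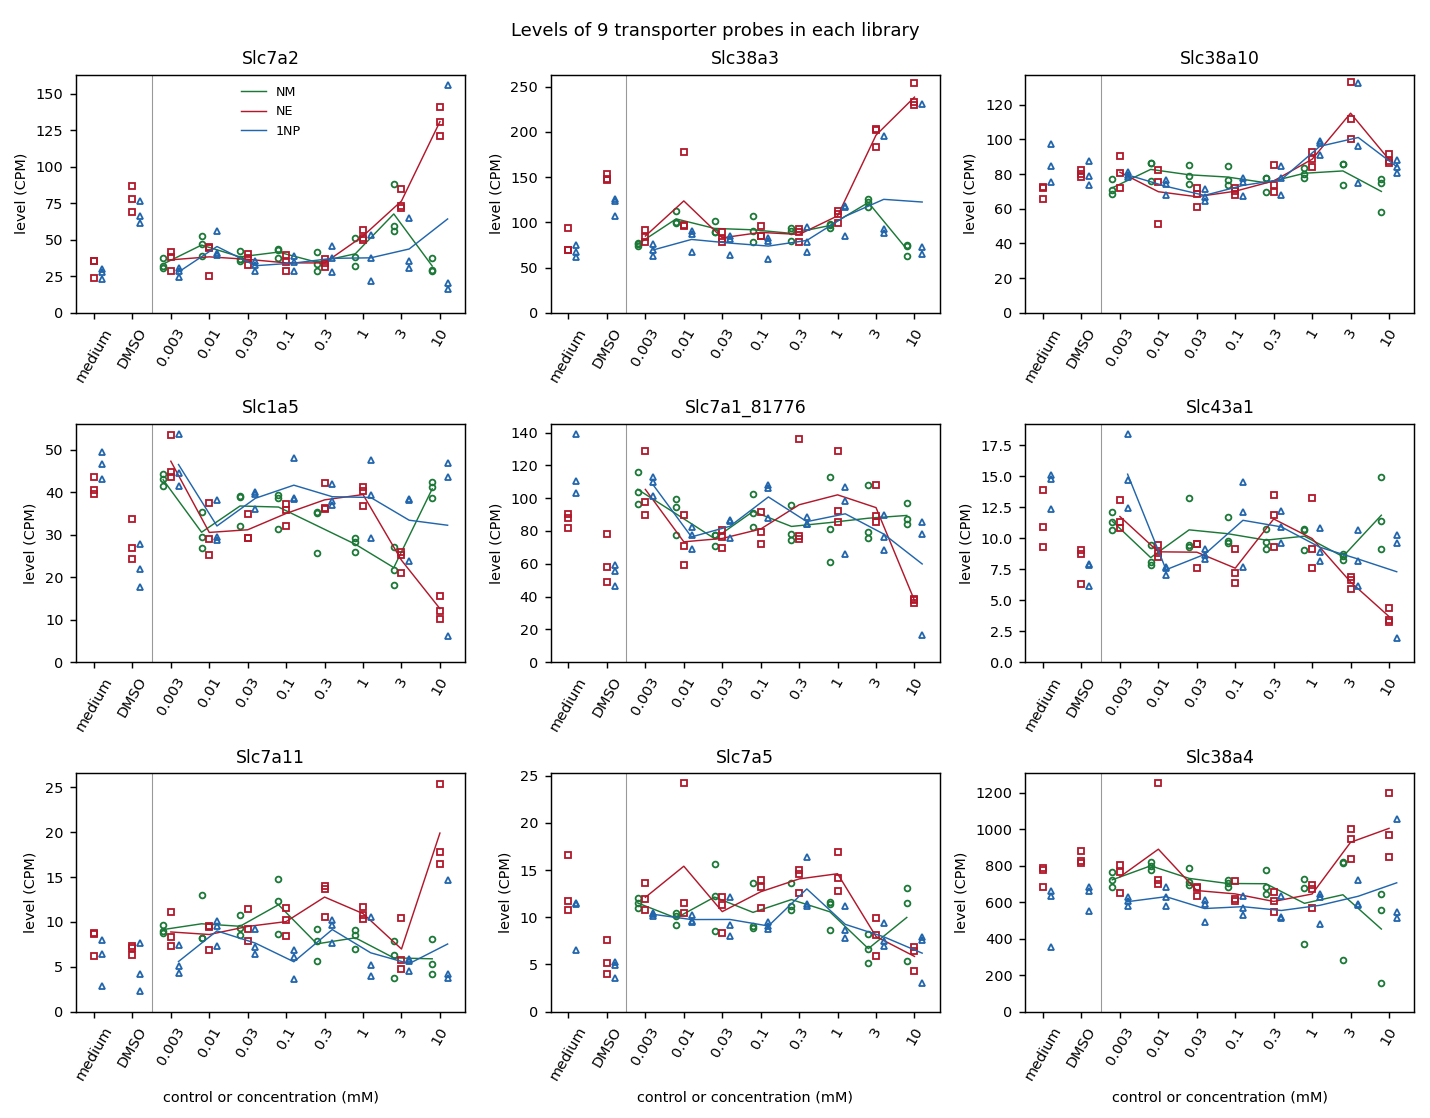
Levels in CPM (y axis, linear from 0) of 9 members in every library, by control or concentration (x axis), with a line through the group means of each nitroalkane; the control squares are set 1, shared by NM and NE, and the control triangles are set 2. NE rises from about the medium level to 121 to 141 CPM for Slc7a2, and a single 1NP triangle at 10 mM lies near or beyond the NE squares in most panels.

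At 3 mM NE, 9 of 35 members were called against medium (3 higher, 6 lower), where 11.5% of all probes were called, and 3 of 35 against DMSO (2 higher, 1 lower), where 6.08% were. The cholangiocyte list summed to 316 to 361 CPM, against 627 to 737 CPM in medium and 545 to 624 CPM in DMSO. The hepatocyte list summed to 11240 to 14940 CPM, against 8636 to 10810 CPM in medium and 14600 to 15840 CPM in DMSO. Of 9 hepatocyte markers 2 were called higher against medium and 3 lower against DMSO. The part of both lists in these changes was not tested. Slc38a10, a less studied member of the Slc38 family, read 100, 112 and 133 CPM, above the 65.5 to 72.5 CPM of medium and the 78.4 to 82.0 CPM of DMSO. It rose by 0.80 ± 0.13 (adjusted p = 8.72e-05) and by 0.54 ± 0.12 (0.00769), and the second call was lost without NE 3 mM replicate 3 (0.0667). At 10 mM the same probe was at 86.2 to 91.6 CPM, with a change of 0.33 ± 0.13 against medium, a call lost without 5 of the 6 libraries compared, 1 at a time (up to 0.171), and 0.08 ± 0.12 against DMSO. Slc36a4, a proton-coupled carrier, read 2.83, 1.39 and 0.856 CPM at 3 mM, below the 3.38 to 5.81 CPM of medium and the 4.50 to 5.64 CPM of DMSO, and fell by 1.40 ± 0.34 and by 1.56 ± 0.33, the first call being lost without NE 3 mM replicate 3 (0.0567). The third member called against DMSO was Slc7a1_81776, higher at 3 mM by 0.63 ± 0.19 where it was lower at 10 mM. That call was lost without DMSO replicate 1 or 2 or NE 3 mM replicate 2 or 3 (adjusted p 0.0868 to 0.223). At 10 mM the wells of Slc36a4 read 7.80, 7.59 and 4.0 CPM and no call was made. Slc7a2 and Slc38a3 rose against medium at 3 mM as well, by 1.36 ± 0.17 and 1.42 ± 0.21. Against DMSO, Slc38a3 read 183 to 204 CPM at 3 mM beside 147 to 153 CPM and was not called, but it was called (0.41 ± 0.10, adjusted p = 0.00617) in the fit without the libraries that stood apart. Slc1a5 and Slc43a1 fell against medium at 3 mM, by 0.70 ± 0.16 and 0.73 ± 0.21, and the call of Slc43a1 was lost without medium replicate 2 or 3 or NE 3 mM replicate 1 or 2 (0.0566 to 0.146). Also lower than medium were Slc6a6 (-1.245, adjusted p = 0.0052), Slc6a8 (-1.007, 0.044) and Slc7a1_81777 (-0.825, 0.0294). The call of Slc6a6 held without any 1 library. That of Slc6a8 was lost without any 1 medium library or NE 3 mM replicate 2 or 3 (0.0593 to 0.182). That of Slc7a1_81777 was lost without medium replicate 1 or 3 or NE 3 mM replicate 2 or 3 (0.0875 to 0.172).

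NM gave few calls. At 10 mM no member of 35 was called against medium with edgeR, where 0.662% of all probes were, with 2 at an unadjusted p under 0.05 and 0 called by DESeq2. Against DMSO 5 of 35 were called (1 higher, 4 lower), where 7.19% were. The 4 lower members were Slc7a2, Slc38a3, Slc6a12 and Slc6a13. Slc7a2 read 28.7, 29.4 and 37.7 CPM at 10 mM NM, within or next to the 23.7 to 35.5 CPM of medium and below all DMSO wells. The calls of Slc6a12 and Slc6a13 were each lost without at least 4 of the libraries, 1 at a time (adjusted p up to 0.16 and 0.146). The higher member, Slc7a1_81777, lost its call without NM 10 mM replicate 3 (0.212), among others. These 3 calls were also lost with only the libraries compared in the fit (adjusted p 0.11 to 0.243).

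At 3 mM NM, 4 of 35 members were called against medium (3 higher, 1 lower), where 2.32% of all probes were, and none against DMSO with edgeR, where 0.679% were (5 at an unadjusted p under 0.05, 0 by DESeq2). Slc7a2 read 88.0, 59.1 and 55.7 CPM and rose against medium by 1.10 ± 0.19 (adjusted p = 0.00168). With only the 6 libraries compared in the fit, none of the 4 calls at 3 mM was made (adjusted p 0.291 to 0.397). Slc38a3 read 117, 126 and 123 CPM, above the medium wells and below the DMSO wells, and rose against medium by 0.67 ± 0.13. Slc1a5 fell against medium by 0.87 ± 0.16. Slc6a13 rose by 1.24 ± 0.33 (adjusted p = 0.0474), a call lost without any 1 of the 6 libraries compared. The hepatocyte list summed to 14580 to 15540 CPM at 3 mM NM, against 8636 to 10810 CPM in medium and 14600 to 15840 CPM in DMSO. Of its 9 markers 4 were called higher against medium and 0 were called against DMSO, and their part in these changes was not tested.

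The NM libraries that stood apart were low in some members. Slc38a4 read 646, 556 and 157 CPM at 10 mM NM and 284, 824 and 816 CPM at 3 mM, the low wells being replicate 3 and replicate 1. Slc6a6 read 8.59 and 4.82 CPM in these 2 wells and 32.5 to 48.7 CPM in the other 4. Without the libraries that stood apart, 2 members were called at 10 mM against medium (2.24% of all probes), Slc38a4 (-0.34 ± 0.09) and Slc7a1_81775 (-0.54 ± 0.15), and 7 at 3 mM (4.44%), where Slc6a6, Slc7a5 and Slc7a1_81775 (lower) joined the 4 above.

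At 10 mM 1NP, replicate 3 lay far from replicates 1 and 2. Slc7a2 read 20.4, 16.1 and 156 CPM, Slc38a3 64.8, 72.3 and 230 CPM, and Slc1a5 43.5, 47.0 and 6.21 CPM. Slc7a11 read 4.18, 3.80 and 14.7 CPM, and Slc43a1 10.3, 9.63 and 1.99 CPM. Replicates 1 and 2 lay below all medium wells of set 2 for Slc7a2. In these 5 members replicate 3 lay on the side to which NE at 10 mM had moved from medium, but not in every member. As log2 ratios to the medium mean of the set (after adding 0.5 CPM), Slc6a6 was at 0.065 in replicate 3 and at -1.228 to -0.749 in the NE wells. Slc7a1_81777 was at -0.125 in replicate 3 and at 0.015 to 0.511 in the NE wells. With all libraries, 5 of 36 members were called against medium (2 higher, 3 lower), where 10.2% of all probes were: Slc36a1, a lysosomal proton-coupled carrier, and Slc6a13 were higher, and Slc1a2, Slc7a1_81775 and Slc38a7 were lower. Without replicate 3 none was called with edgeR, where 0.666% of all probes were (5 members at an unadjusted p under 0.05), and Slc36a1 changed by 0.47, Slc6a13 by 0.45 and Slc38a7 by -0.62. Without medium replicate 5 none was called either, without medium replicate 4 or 6 there were 3 calls, and without 1NP replicate 1 or 2 there were 12 or 10. With only the libraries compared in the fit none of the 5 calls was made (adjusted p 0.38 to 0.397).

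Against DMSO no member was called at 10 mM 1NP with edgeR, where 2.17% of all probes were (2 at an unadjusted p under 0.05, 1 by DESeq2). Without replicate 3 there were 3 calls: Slc7a2 was lower by -1.96 ± 0.33, and Slc1a5 and Slc7a1_81776 were higher by 0.95 ± 0.20 and 0.55 ± 0.15. At 3 mM none of 36 was called with edgeR against medium (0.223% of all probes called, 7 members at an unadjusted p under 0.05, 0 by DESeq2) or against DMSO (0.57% of all probes, 5 members, 0 by DESeq2). Slc38a3 read 88.4, 92.8 and 195 CPM at 3 mM 1NP, with replicate 3 again high. It changed by 0.98 ± 0.37 against medium (adjusted p = 0.205). The fit without the libraries that stood apart leaves out none of the 3 mM wells and called 4 members against medium (4.36% of all probes): Slc38a3 was higher (0.97 ± 0.23, adjusted p = 0.0234), and Slc38a7, Slc7a1_81775 and Slc7a1_81776 were lower, by -0.57, -0.78 and -0.51. Against DMSO that fit called Slc7a1_81776 higher, by 0.52 ± 0.14 (3.3% of all probes).

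**Figure D4:**
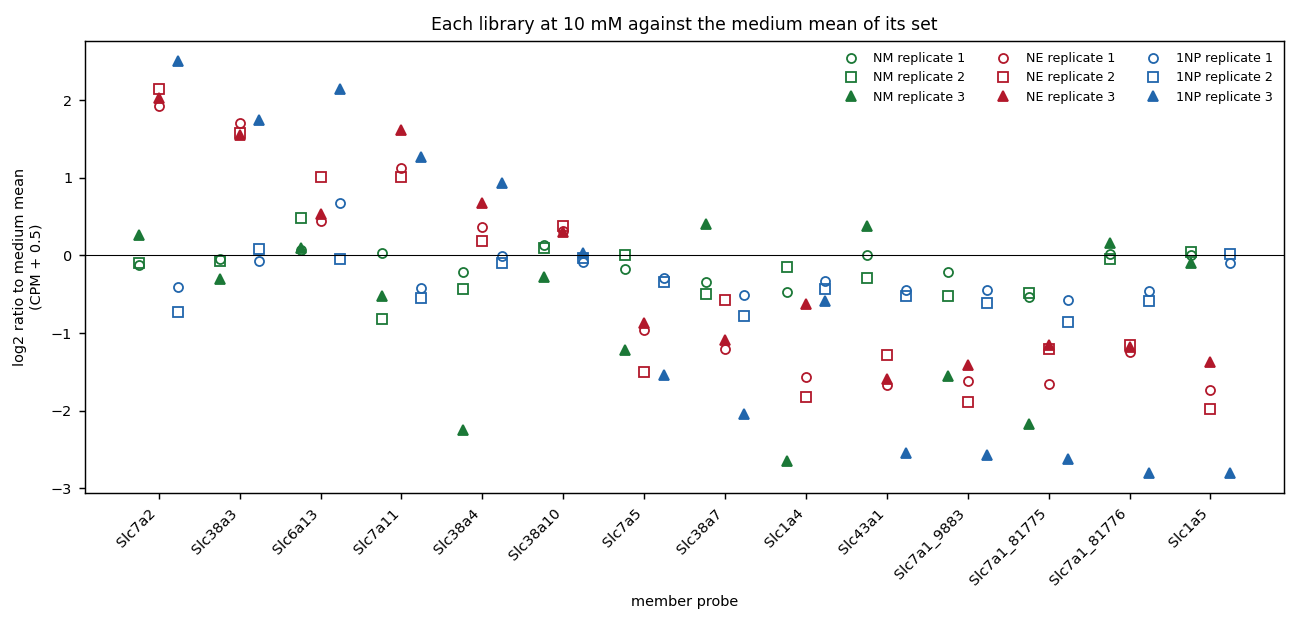
Log2 ratio (y axis) of each library at 10 mM to the mean of the medium wells of its set, after adding 0.5 CPM, for 14 members (x axis); colour gives the nitroalkane and symbol the replicate. 1NP replicate 3 (filled blue triangle) lies with NE (red) or beyond it for Slc7a2 and Slc38a3, while 1NP replicates 1 and 2 lie between -0.73 and 0.09 for these members; NM replicate 3 (filled green triangle) lies low for Slc38a4 and Slc1a4.

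The nitroalkanes were compared at matched concentrations. NE and NM, both of set 1, differed at 10 mM in 7 of 29 members (4 higher in NE, 3 lower), where 11.7% of all probes differed. Slc7a2 was higher in NE than in NM by 2.08 ± 0.20 (adjusted p = 0.000777), Slc38a3 by 1.82 ± 0.20, Slc7a11 by 1.82 ± 0.35 and Slc6a12 by 3.05 ± 0.60. Slc1a5 was lower in NE by -1.63 ± 0.27, Slc43a1 by -1.64 ± 0.32 and Slc7a1_81776 by -1.20 ± 0.18. Without the libraries that stood apart the count was 16 of 30, where 40% of all probes differed. The calls of Slc7a11, Slc43a1 and Slc6a12 were each lost without NE 10 mM replicate 1 (adjusted p = 0.0693, 0.0782 and 0.0784), as was that of Slc1a5 (0.056). That of Slc43a1 was also lost without NE 10 mM replicate 3 (0.0766), that of Slc6a12 without NM 10 mM replicate 2 (0.0559), and that of Slc7a11 without either (0.0824 and 0.0564). Without NM 10 mM replicate 3 alone 12 members were called. At 3 mM no member of 28 differed between NE and NM with edgeR, where 0.0179% of all probes did (3 members at an unadjusted p under 0.05, 1 by DESeq2). Slc38a3 had a NE minus NM difference of 0.74 at 3 mM (95% interval 0.42 to 1.07, adjusted p = 0.3).

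For 1NP, which was run in set 2, the change from its own control was set against the change of NE or NM from the control of set 1. In the 6 comparisons (1NP with NE and with NM, at 3 and 10 mM over medium and at 10 mM over DMSO) 0 members were called with edgeR, and 0% of all probes were. Between 1 and 4 members had an unadjusted p under 0.05, and DESeq2 called 1 member, for 1NP and NE at 10 mM over DMSO. The intervals were wide. The Slc7a2 effect of 1NP minus that of NE at 10 mM over medium was -0.69 (95% interval -2.68 to 1.30), and that of Slc38a3 was -0.68 (-1.81 to 0.45). Without 1NP 10 mM replicate 3 the effects of 1NP and NE differed in 6 of 35 members over medium, where 12.3% of all probes differed, and in 11 of 35 over DMSO, where 26% did. In that fit the Slc7a2 effect of 1NP was below that of NE by -2.59 ± 0.26 over medium, and the Slc1a5 effect above it by 1.69 ± 0.27. The effects of 1NP and NM differed in 0 members without that library as well, with 3 members at an unadjusted p under 0.05 over either control.

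Below 3 mM the calls depended on the control. Summed over the 6 concentrations from 0.003 to 1 mM, no member was called against medium with edgeR, for NM in 210 tests (0.00136% of all probe tests called, 11 members' tests at an unadjusted p under 0.05), for NE in 210 (0.0446%, 20) or for 1NP in 216 (0.0467%, 11). DESeq2 called 2 for NE and 1 for 1NP. Against DMSO there were 15 calls for NM (1 higher, 14 lower; 2.31% of all probe tests), 26 for NE (13 higher, 13 lower; 3.31%) and 12 for 1NP (12 higher; 4.83%). Slc7a2 was called lower than DMSO at 6 of 6 NM and 6 of 6 NE concentrations. Its 18 low-concentration NM wells ran from 28.8 to 52.8 CPM (median 37.9) and the 18 NE wells from 25.5 to 57.0 CPM (median 37.8), all below the 3 DMSO wells. The 18 1NP wells ran from 22.0 to 55.7 CPM (median 34.9), all below the DMSO wells of set 2 as well, but Slc7a2 was not called there. Slc38a3 was called lower at 6 of 6 NM and 4 of 6 NE concentrations. Slc7a5 was called higher at 4 of 6 NE and 3 of 6 1NP concentrations, and Slc7a1_81777 at 3 of 6 NE concentrations. These calls share 3 DMSO wells per set. Without any 1 of those wells the count for NE was 10 to 16 and that for 1NP 5 to 7. With only the libraries compared in each fit, the count against DMSO was 30 for NM and 57 for 1NP.

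Of the reference compounds, BaP raised Slc7a15 and Slc7a11. Against DMSO, BaP called 4 of 33 members (3 higher, 1 lower), where 9.17% of all probes were called, and against medium 16 of 33 (7 higher, 9 lower), where 19.7% were. The lower calls against medium include Slc7a1_9883, Slc7a1_81658, Slc7a1_81775 and Slc7a1_81776, probes of 1 gene. Slc7a15, an aromatic amino acid carrier of rodents, read 12.8, 12.2 and 11.4 CPM with BaP, 1.89, 2.19 and 1.90 CPM in DMSO and 0.456 to 1.5 CPM in medium. Its BaP wells lay above all control wells, and the rise was 2.54 ± 0.42 against DMSO (adjusted p = 6.94e-05) and 3.47 ± 0.46 against medium (1.03e-06). Slc7a15 had a mean under 10 CPM and was named after its values were seen. Slc7a11 read 18.0, 15 and 15.1 CPM with BaP and rose by 1.15 ± 0.22 against DMSO and by 1.00 ± 0.22 against medium. Slc38a4 read 1020, 1034 and 1094 CPM, above all control wells, and rose by 0.26 ± 0.08 and by 0.46 ± 0.08, the first call being lost without any 1 of the 6 libraries compared. Slc38a7 read 25.2, 20.5 and 22.8 CPM and fell by 0.46 ± 0.12 and by 0.83 ± 0.12, the first call being lost without BaP replicate 2 (adjusted p = 0.0771) or DMSO replicate 3 (0.0901). Both calls against DMSO, of Slc38a4 and Slc38a7, were lost with only the libraries compared in the fit (0.0666 and 0.0988). The cholangiocyte list summed to 383 to 431 CPM with BaP, against 545 to 624 CPM in DMSO and 627 to 737 CPM in medium, with 2 of 4 markers tested called lower against each. The hepatocyte list summed to 11480 to 12590 CPM, and the part of both in these changes was not tested.

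CITCO called no member against DMSO with edgeR, at 10 µM (0.149% of all probes called, 5 members at an unadjusted p under 0.05, 0 by DESeq2) or at 20 µM (0.843%, 4 members, 0 by DESeq2). Against medium it called 3 members at 10 µM (2.58% of all probes, Slc7a2 and Slc38a3 higher, Slc1a5 lower) and 12 of 33 at 20 µM (14.7%, 5 higher, 7 lower). Higher at 20 µM were Slc7a2 (1.66), Slc38a3 (1.00), Slc6a13 (1.75), Slc7a15 and Slc38a10. Lower were Slc7a5 (-1.24), Slc1a5, Slc38a7, Slc6a6, Slc7a1_9883, Slc7a1_81775 and Slc7a1_81777. Of these, Slc7a2, Slc38a3, Slc6a13, Slc7a5, Slc7a1_9883 and Slc7a1_81775 also differed between DMSO and medium of set 1, in the same direction. The call of Slc1a5 at 10 µM was lost without CITCO replicate 1 (adjusted p = 0.112) or medium replicate 3 (0.0903). At 20 µM the calls of Slc6a6, Slc38a10, Slc7a15, Slc7a1_9883 and Slc7a1_81775 were each lost without some single libraries (up to 0.173). Rifampin called 3 members lower than DMSO at 20 µM (2.87% of all probes; Slc7a2, Slc38a3 and Slc38a4) and 3 at 40 µM (1.69%; Slc7a2, Slc38a3 and Slc7a11). The call of Slc38a4 at 20 µM was lost without rifampin replicate 3 or DMSO replicate 1 or 2 (adjusted p 0.0797 to 0.202). Against medium it called 0 at 20 µM with edgeR (0.273% of all probes, 8 members at an unadjusted p under 0.05, 0 by DESeq2) and 2 at 40 µM (3.31%). Slc7a11 was lower with 40 µM rifampin than in either control, at 4.26, 2.41 and 4.32 CPM. It fell by 1.01 ± 0.25 against DMSO and by 1.16 ± 0.25 against medium (adjusted p = 0.027 and 0.00609), calls lost without rifampin replicate 2 (0.153 and 0.0604). The call against DMSO was also lost without rifampin replicate 1 or any 1 DMSO library (0.0595 to 0.12). Slc7a2 with 40 µM rifampin, at 45.2, 49.3 and 50.5 CPM, lay between the controls and was called lower than DMSO and higher than medium. The call over medium was lost without rifampin replicate 2 or 3 or medium replicate 3 (adjusted p 0.0822 to 0.193).

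WY-14643 in set 1 called 4 members against DMSO (4.88% of all probes), all lower (Slc6a12, Slc7a2, Slc38a3 and Slc38a4), and 2 against medium (5.8%), both higher (Slc7a2 and Slc6a13). Of the 4 lower calls that of Slc38a3 held without any 1 library, while the others were each lost without at least 4 of the 6 libraries, 1 at a time. In set 2 it called none against DMSO with edgeR (0.901% of all probes, 4 members at an unadjusted p under 0.05, 0 by DESeq2) and 9 of 32 against medium (16.9%). Slc6a13 read 11.3, 15.4 and 9.0 CPM with WY-14643 in set 1 and 11.3, 12 and 12.2 CPM in set 2, above every control well of its set. It rose against medium by 1.84 ± 0.27 and 2.01 ± 0.28 and was not called against DMSO in either set.

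Over all groups, Slc7a2 had its highest mean at 10 mM NE (131 ± 9.90 CPM, SD, n = 3), followed by CITCO at 20 µM (98.0 ± 7.69), BaP (84.9 ± 4.59), DMSO of set 1 (77.9 ± 8.88) and 3 mM NE (76.5 ± 7.24). The wells of NE at 10 mM did not overlap those of CITCO, nor did those of CITCO overlap BaP, while BaP, DMSO and 3 mM NE overlapped in turn. Slc38a3 had its highest means at 10 and 3 mM NE (239 ± 13.3 and 196 ± 11.4 CPM). Slc7a11 had its highest means at 10 mM NE (19.9 ± 4.8 CPM) and with BaP (16.1 ± 1.71), whose wells overlapped. Slc1a5 had its lowest mean at 10 mM NE (12.6 ± 2.81 CPM), and Slc7a1_81776 too (37.7 ± 1.26).

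Other genes of amino acid use were read from lists. Of 26 probes of the ATF4 amino acid response, transporters left out, 16 were called at 10 mM NE against medium (5 higher, 11 lower; median log2 change -0.24, all probes 0.03), where 34% of all probes were called, and 18 against DMSO (10 higher, 8 lower; median 0.26, all probes 0.03), where 28.9% were. Chac1, which degrades glutathione and stands in both this and the glutathione list, fell by 2.34 ± 0.44 against medium and by 1.30 ± 0.45 against DMSO, and Pycr1, the last enzyme of proline synthesis, rose by 2.04 ± 0.15 and by 2.56 ± 0.15. Atf4 itself fell against medium by 0.53 ± 0.11. In the list of glutathione and NRF2-linked genes 9 of 14 were called at 10 mM NE against medium (7 higher, 2 lower, median 0.55), beside the same 34% of all probes. Among the higher ones were Txnrd1, the cytosolic thioredoxin reductase (1.70 ± 0.25), and Gclc, the catalytic subunit of the first enzyme of glutathione synthesis (1.43 ± 0.13). Against DMSO 8 of 14 of this list were called at 10 mM NE (6 higher, 2 lower, median 0.50), where 28.9% of all probes were. With BaP 9 of 14 were called against medium (8 higher, 1 lower, median 0.47), where 19.7% of all probes were. Against DMSO the BaP count was 4 of 14 (4 higher, median 0.32), where 9.17% were. Of amino acid carriers outside the rule 5 of 12 were called at 10 mM NE against medium (3 higher, 2 lower), and of the mTORC1 sensing genes 5 of 18 (1 higher, 4 lower), Sesn2 among the lower (-0.98 ± 0.18). Both counts lie near the share of all probes called against medium, 34%. Against DMSO they were 5 of 12 (3 higher, 2 lower) and 2 of 18 (2 lower), where 28.9% of all probes were called. Changes of Atf4, Txnrd1, Gclc and Sesn2 are given against medium only. The lists were planned to be described by counts and medians, and no planned rule chose the single genes named from them.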

How the data were processed

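The authors deposited raw read counts per detector probe, 22253 probes in 105 libraries, with no normalization, per the values and the labels. FastQC, Bowtie, R 3.5.3 and DESeq2 1.28.1 are named in the submitters' processing notes without roles; for aligner settings and genome build the sources used here say nothing. Nitroalkane concentrations are in mM, as the protocol has them, although the titles carry µM. For DMSO the titles give 0.5 and the protocol 0.2%.

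The counts were tested with edgeR 4.0.16 in R 4.3.3: filterByExpr (minimum count 10, minimum total 15), TMM, robust quasi-likelihood F test, Benjamini-Hochberg over all probes of a fit, called under 0.05. SE is the absolute log2 change over the square root of F, and intervals are 95%. Levels are CPM over library totals, without TMM. Each nitroalkane was fitted with 1 control (27 libraries), the reference compounds with both controls (24 and 9), NE with NM (6), and effects between sets with 12 libraries. Alternatives were DESeq2 1.42.0, RLE scaling, no filter, only the libraries compared, a replicate block, and leaving out libraries. On simulated counts for NE 10 mM against medium (12173 probes) the test recovered 69% of probes with a log2 change of 1 and 100% of those with 2, and called 0.0585% of unchanged probes. The changed probes were drawn only from those above a minimum mean level, so the recovery does not cover members near the floor. No pair of libraries within a group was closer than counting error allows (chi-square over its degrees of freedom at least 2.88). Members named in full were called with 1 sign against both controls at a mean of at least 10 CPM, or came from a list of carriers named whatever they did. The members and lists were chosen with earlier results of these data known.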

Additional observations from a re-analysis of the deposited data

Results flagged for a closer look

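A single result differed between the sets. The effect of medium against DMSO on Slc7a1_81777 was lower in set 2 than in set 1, by a log2 difference of -1.15 ± 0.27 (SE, 95% interval -1.68 to -0.62, adjusted p = 0.0436 with edgeR over 11759 probes). This comparison was added after the values were seen. In set 1 the medium wells read 44.0, 37.1 and 42.1 CPM and the DMSO wells 29.7, 31.9 and 22.6 CPM, while in set 2 the medium wells read 31.5, 15.6 and 24.4 CPM and the DMSO wells 37.4, 33.5 and 32.8 CPM. All 3 medium wells were above DMSO in set 1 and all 3 below it in set 2. Of 32 members tested it was the only 1 called, and 121 of all probes were. For the effect of WY-14643 against DMSO, 0 members differed between the sets with edgeR, with 1 at an unadjusted p under 0.05.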

How the results depend on the processing

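No result reversed under the alternatives run. RLE scaling left every count of called members within 1.5 times the main count. The other counts that moved further are given here by setting, with the main count in brackets, and the cause of each move was not tested. With no low-count filter the counts were 3 for NM 10 mM against DMSO (5), 1 for 1NP 10 mM against DMSO (0), 4 for 1NP 3 mM against medium (0) and 12 for 1NP 10 mM against medium (5). They were 1 for CITCO 20 µM against DMSO (0), 7 for CITCO 10 µM against medium (3), 1 and 9 for rifampin 20 and 40 µM against medium (0 and 2), and 4 for WY-14643 of set 1 against medium (2). They were 2 for the 1NP minus NE effect at 10 mM over medium and 2 over DMSO (0 each), 3 for NE below 3 mM against medium (0) and 9 for 1NP below 3 mM against medium (0). With DESeq2 they were 6 for NE 3 mM against DMSO (3), 1 for 1NP 10 mM against DMSO (0), 9 for 1NP 10 mM against medium (5), 6 for CITCO 10 µM against medium (3) and 6 for rifampin 40 µM against medium (2). DESeq2 also gave 1 for NE minus NM at 3 mM (0), 1 for the 1NP minus NE effect at 10 mM over DMSO (0), 2 for NE below 3 mM against medium (0), and 20 and 1 for 1NP below 3 mM against DMSO and medium (12 and 0).

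With only the libraries compared in each fit, the counts were 2 for NM 10 mM against DMSO (5), 0 for NM 3 mM against medium (4), 5 for NE 3 mM against DMSO (3), 1 for 1NP 3 mM against DMSO (0), 0 for 1NP 10 mM against medium (5) and 2 for BaP against DMSO (4). They were 2 and 4 for WY-14643 of set 1 against DMSO and medium (4 and 2), 3 for WY-14643 of set 2 against DMSO (0), 6 for CITCO 10 µM against medium (3), and 1 and 4 for rifampin 20 and 40 µM against medium (0 and 2). Below 3 mM they were 30 and 1 for NM against DMSO and medium (15 and 0), 4 for NE against medium (0), and 57 and 4 for 1NP against DMSO and medium (12 and 0). Without the 6 libraries that stood apart, a setting added after seeing the data, they were 7 and 2 for NM 3 and 10 mM against medium (4 and 0), 3 and 0 for 1NP 10 mM against DMSO and medium (0 and 5), and 1 and 16 for NE minus NM at 3 and 10 mM (0 and 7). They were 6 and 14 for the 1NP minus NE effect at 10 mM over medium and DMSO (0 and 0), 40 and 2 for NM below 3 mM against DMSO and medium (15 and 0), and 1 for NE below 3 mM against medium (0). For groups that hold none of the 6 but share a fit with them, they were 6 for NE 3 mM against DMSO (3), and 4 and 1 for 1NP 3 mM against medium and DMSO (0 and 0).

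Whether replicate numbers pair the libraries was not settled. In 0 of 50 comparisons did every same-numbered pair correlate above 0.1 in its deviations (r from -0.333 to 0.349, median 0.025). In 70 of the 150 same-numbered pairs the library correlated best with its own number, out of 3 libraries in the other group. With the replicate block the counts were 0 for NM 10 mM against DMSO (5), 0 for NM 3 mM against medium (4), 8 for NE 3 mM against DMSO (3), 1 and 8 for CITCO 10 µM against DMSO and medium (0 and 3), 5 and 4 for rifampin 20 µM against DMSO and medium (3 and 0), and 1 for rifampin 40 µM against medium (2). With the block they were also 6 for WY-14643 of set 1 against medium (2), 4 for WY-14643 of set 2 against DMSO (0), 12 for medium against DMSO in set 1 (7), 41 and 2 for NM below 3 mM against DMSO and medium (15 and 0), and 4 for NE below 3 mM against medium (0). 1NP shares no replicate numbers with its controls and had no such fit.

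Leaving out 1 library at a time, the counts ran from 15 to 17 (main 19) for NE 10 mM against medium, 9 to 14 against DMSO, 6 to 8 (main 9) for NE 3 mM against medium and 1 to 5 against DMSO. For NM they ran from 2 to 5 at 10 mM against DMSO and from 3 to 3 (main 4) at 3 mM against medium, and stayed at 0 at 10 mM against medium and at 3 mM against DMSO. For 1NP they ran from 0 to 3 at 10 mM against DMSO and from 0 to 12 against medium, and stayed at 0 at 3 mM. NE minus NM ran from 3 to 12 at 10 mM and from 0 to 1 at 3 mM. The 1NP minus NE effect ran from 0 to 6 over medium and 0 to 11 over DMSO at 10 mM and from 0 to 1 at 3 mM, and the 1NP minus NM effects stayed at 0. BaP ran from 2 to 4 against DMSO and 13 to 16 against medium. CITCO stayed at 0 against DMSO and ran from 2 to 4 at 10 µM and 8 to 11 (main 12) at 20 µM against medium. Rifampin ran from 2 to 3 at 20 µM and at 40 µM against DMSO, stayed at 0 at 20 µM and ran from 0 to 4 at 40 µM against medium. WY-14643 ran from 1 to 4 and 2 to 3 against DMSO and medium of set 1, stayed at 0 against DMSO of set 2 and ran from 6 to 11 against its medium. Medium against DMSO ran from 3 to 8 in set 1 and 8 to 14 in set 2. Below 3 mM, with a DMSO library left out, the counts ran from 12 to 15 for NM, 10 to 16 (main 26) for NE and 5 to 7 (main 12) for 1NP, and with a medium library left out they stayed at 0. Of the 142 calls followed singly, none changed sign, and 193 of 852 refits without 1 library lost the call, while 0 calls were lost with RLE, 1 with DESeq2, 14 with no low-count filter, 34 with only the libraries compared (100 held), 28 with the replicate block (108 held) and 11 without the 6 libraries that stood apart (42 held).

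Depth limits members near the floor: with 3 counts worth up to 0.548 CPM, changes of such members as Slc1a1, Slc1a3, Slc7a3, Slc7a7 and Slc6a17, whose medians over all libraries lay under 1.5 CPM, rest on few counts. Whether a member was called often depended on the control. For Slc7a2 with 40 µM rifampin and with WY-14643 of set 1 the sign of the call did too. All wells come from 1 lot.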
